A study of Homo sapiens with 9 samples.

Results

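The RNA levels of 44 lysosomal genes were followed in MDA-MB-231, a triple-negative human breast cancer cell line. The genes were chosen by name from the 58735 genes counted. They comprise 32 acid hydrolases, activators and membrane proteins and 12 subunits of the vacuolar H+-ATPase (V-ATPase). RNA was sequenced from 9 libraries of this 1 line, 3 of cells given only the solvent DMSO (vehicle), 3 of cells labelled as treated with erastin that survived rising amounts of it (erastin-R), and 3 of cells labelled as treated with RSL3 that survived rising amounts of that compound (RSL3-R). Erastin blocks cystine uptake and RSL3 inhibits GPX4, and both trigger ferroptosis, an iron-dependent death by lipid peroxidation. All 3 groups share the line's own genotype, and the labels give no engineered allele. Whether either compound was present at harvest, and whether the libraries of a group came from separate cultures, is not given in the sources used here, so the p values measure the spread between these libraries only.

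Lysosomes are acidic organelles in which hydrolases take apart proteins, glycans and lipids. The V-ATPase pumps protons into their lumen, with a membrane-bound V0 sector that carries the protons and a peripheral V1 sector that hydrolyses ATP. Transcription factors of the TFEB, TFE3 and MITF family bind E-box motifs near the starts of many lysosomal genes, and lysosomes also handle the iron on which ferroptosis depends.

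The lysosomal genes did not move as a block in either resistant population. Against vehicle, 14 of the 44 rose and 11 fell in erastin-R cells, and 17 rose and 9 fell in RSL3-R cells. Of all genes tested, 27.1% rose and 26.8% fell in erastin-R cells and 23.8% rose and 24.9% fell in RSL3-R cells, so the erastin-R counts are near the background. The glycosidases GAA, GLB1, MAN2B1, NAGLU, NEU1 and FUCA1 and the ceramide-pathway enzymes ASAH1 and GALC rose in both populations, while the sulfatase ARSB, the calcium channel MCOLN1 and the acid lipase LIPA fell in both. In total 10 of the 44 members rose in both and 6 fell in both, beside 14.1% and 14.5% of all genes. The cathepsin CTSL was 2.12-fold higher in RSL3-R than in vehicle-treated cells, and ARSB was 2.12-fold lower in erastin-R cells. A gene is said to have risen or fallen where edgeR's quasi-likelihood test gave a Benjamini-Hochberg adjusted p under 0.05 over 16188 genes. Levels are CPM, read counts scaled to a common library size by edgeR's TMM method, differences are log2 fold changes with their standard error (SE), and each group had 3 libraries.

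Promoter sequences are shown for 4 members because they carry the E-box and yet went different ways. Each is the 200 bases before the gene's start in RefSeq's table for GRCh38.p14, written 5′ to 3′ along the gene's own strand, with every CACGTG in capitals. They cover chr13:113297039-113297238 on the plus strand for LAMP1, chr19:7522424-7522623 on the plus strand for MCOLN1, chr16:67481158-67481357 on the minus strand for ATP6V0D1 and chr17:80101381-80101580 on the plus strand for GAA.
LAMP1: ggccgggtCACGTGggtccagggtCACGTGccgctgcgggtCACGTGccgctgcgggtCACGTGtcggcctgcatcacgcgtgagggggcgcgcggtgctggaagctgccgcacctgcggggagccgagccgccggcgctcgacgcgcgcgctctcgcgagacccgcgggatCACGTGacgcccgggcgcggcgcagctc
MCOLN1: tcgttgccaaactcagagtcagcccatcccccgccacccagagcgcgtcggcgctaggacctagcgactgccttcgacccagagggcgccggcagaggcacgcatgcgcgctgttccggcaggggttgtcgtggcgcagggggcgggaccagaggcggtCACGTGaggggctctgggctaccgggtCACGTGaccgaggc
ATP6V0D1: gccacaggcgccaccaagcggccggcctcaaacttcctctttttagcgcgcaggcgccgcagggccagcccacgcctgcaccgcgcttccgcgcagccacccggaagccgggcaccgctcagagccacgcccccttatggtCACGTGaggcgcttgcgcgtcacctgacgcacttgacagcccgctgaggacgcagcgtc
GAA: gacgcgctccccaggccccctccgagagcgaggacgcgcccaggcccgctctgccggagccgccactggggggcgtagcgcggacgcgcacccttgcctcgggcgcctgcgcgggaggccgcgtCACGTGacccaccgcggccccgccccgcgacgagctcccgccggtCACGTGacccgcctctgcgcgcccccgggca

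RefSeq's table held windows of 300 bases, from 250 before to 50 after the start, for 31 of the 44 members. The 7-base form of the E-box, TCACGTG on either strand (read as CACGTGA on the other), was present in 10 of these 31 genes, or 32.3%, against 4.49% of all genes in the table. By window the shares were 25.6% of 39 member windows and 3.71% of all 35116 windows. The shorter CACGTG, which the longer motif contains, was in 7.26% of all windows. LAMP1 had the most, with 6 E-boxes, of which 5 stand in the printed stretch. The 10 carriers were LAMP1, MCOLN1, CTSA, CTSD, GAA, NEU1, ARSB, GALNS, ATP6V0B and ATP6V0D1.

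Carrying the motif did not go with 1 direction of change. Of the 10 carriers, GAA and NEU1 rose in erastin-R cells and MCOLN1, CTSA, ARSB and ATP6V0D1 fell, with a median difference of -0.15 log2 units. In RSL3-R cells GAA and NEU1 rose again, and MCOLN1, CTSD, ARSB, ATP6V0B and ATP6V0D1 fell, with a median of -0.29. Of the 21 members whose windows lacked the motif, 9 rose and 5 fell in erastin-R cells (median 0.18) and 8 rose and 4 fell in RSL3-R cells (median 0.06). Of the 13 members with no window, 3 rose and 2 fell in erastin-R cells (median 0.05) and 7 rose and none fell in RSL3-R cells (median 0.24). Over all genes tested 27.1% rose and 26.8% fell in erastin-R cells, and 23.8% rose and 24.9% fell in RSL3-R cells. These medians describe the members and were not tested against each other.

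**Figure D1:**
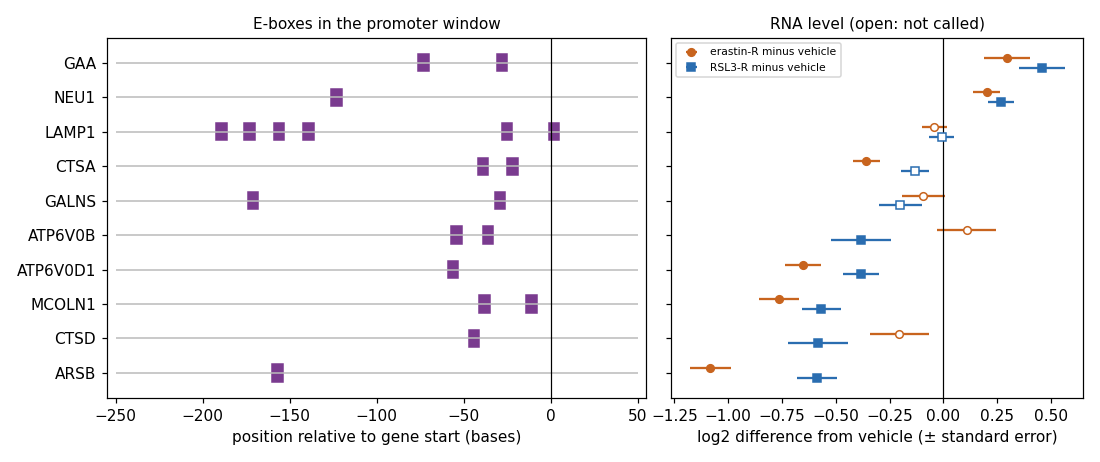
The left panel places each CACGTG as a purple box by its distance in bases from the gene start, and the right panel gives the log2 difference from vehicle of the same 10 genes, with SE, for erastin-R (circles) and RSL3-R (squares). LAMP1, with 6 E-boxes, lies near 0 in both comparisons, GAA and NEU1 lie to the right, and MCOLN1, ARSB and ATP6V0D1 lie to the left in both.

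Each library held between 15405102 and 17273464 counted reads, so that 3 reads corresponded to 0.174 to 0.195 CPM before that scaling. All 44 members passed the filter on low counts. VIM, CD44, EGFR, KRT18 and AXL, which mark this line, had 1093 or more counts in every library, and the luminal receptor genes ESR1 and PGR had at most 12 and 2 counts. Of the other luminal or epithelial markers, GATA3 had 54 to 117 counts, EPCAM 15 to 48 and CDH1 6 to 59. Mitochondrial genes took 9.52% to 10.2% of reads in RSL3-R libraries, 7.97% to 8.93% in vehicle libraries, and 7.95%, 5.55% and 5.84% in erastin-R replicates 1, 2 and 3. Erastin-R replicate 1 also stood apart from its group on the third principal component (-35.7 against 14.4 and 12.97), which held 6.71% of the variance. In comparisons of erastin-R cells, members whose call depends on that library are given with and without it. So are several whose value it moves, among them NAGLU, CTSL and ATP6V1D.

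Lysosomal transcripts took 0.483%, 0.475% and 0.466% of all reads in the vehicle libraries, 0.446%, 0.510% and 0.511% in the erastin-R libraries, and 0.525%, 0.527% and 0.528% in the RSL3-R libraries. The RSL3-R libraries lay above all others. This share is weighted by abundant genes, as PSAP alone had a mean of 916 CPM in vehicle and 1153 in RSL3-R libraries. Against vehicle 17 members rose and 9 fell in RSL3-R cells, and the median log2 difference was 0.05. The erastin-R libraries lay on both sides of the vehicle range, with replicate 1 the lowest. In RNA from whole cultures, fewer cells expressing a gene and less RNA per cell cannot be told apart.

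Levels of different genes can be set side by side per length, as FPKM. In vehicle-treated cells the saposin precursor PSAP, which yields activator proteins for sphingolipid breakdown, led with 280.0 ± 3.63 FPKM (SD, n = 3) and made up 24.3% of the members' summed FPKM. CTSZ (99.4 ± 1.56) and CTSD (96.5 ± 8.94) followed, and these last 2 did not differ beyond their spread. ATP6V0E1 was at 62.3 ± 2.60 FPKM and CTSB at 58.6 ± 1.74, while ATP6V1F (48.3 ± 6.92) and LAMP1 (39.3 ± 0.644) came next. The lowest by FPKM were HEXA (1.75 ± 0.141), CTSS (1.54 ± 0.0711) and ATP6V0C (1.11 ± 0.686). FPKM divides by the length of all annotated exons, which is 12611 bases for HEXA and 5892 for CTSH. By reads HEXA stood above CTSH, with vehicle means of 22.4 and 14.3 CPM, so its low rank depends on that length. CTSS (6.57 CPM) and ATP6V0C (1.67 CPM) were low by reads too. The ranks of SCARB2 (19341 bases) and ASAH1 (15378 bases) also rest on long exon lengths. ATP6V0C, the proteolipid that forms the proton-carrying ring, had only 9 to 48 counts. Of its exon length 57.5% overlaps a same-strand gene, AC093525.2, and 65.7% of its 50-base words recur elsewhere in the transcripts, so its low level is uncertain.

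The number of members that passed the test has to be read against all genes. In erastin-R against vehicle, 25 of 44 members (56.8%) differed, beside 54.0% of all genes. By direction, 31.8% of the members rose against 27.1% of all genes, and 11 of 44 fell, beside 26.8% of all genes. These shares are near the background. In RSL3-R against vehicle, 26 of 44 (59.1%) differed beside 48.7% of all genes, with 38.6% higher against 23.8% and 20.5% lower against 24.9%.

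Libraries of the 2 groups did not overlap for 26 members in erastin-R against vehicle, or 59.1% beside 57.9% of all genes, and for 29 in RSL3-R against vehicle, or 65.9% beside 61.9%. The median log2 difference of the 44 was 0.05 in both comparisons, and that of all genes was 0.00 and 0.01. Most changes were small. With a log2 change of at least 1 required as well, 1 member (ARSB) fell and none rose in erastin-R cells. Of all genes 6.66% fell and 6.70% rose that far, or 13.4% either way. NAGLU also rose past that minimum, at 1.11, when erastin-R replicate 1 was left out. In RSL3-R cells 1 member (CTSL) rose that far and none fell, beside 6.02% and 4.08%, or 10.1% either way. Both comparisons use the same vehicle libraries.

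**Figure D2:**
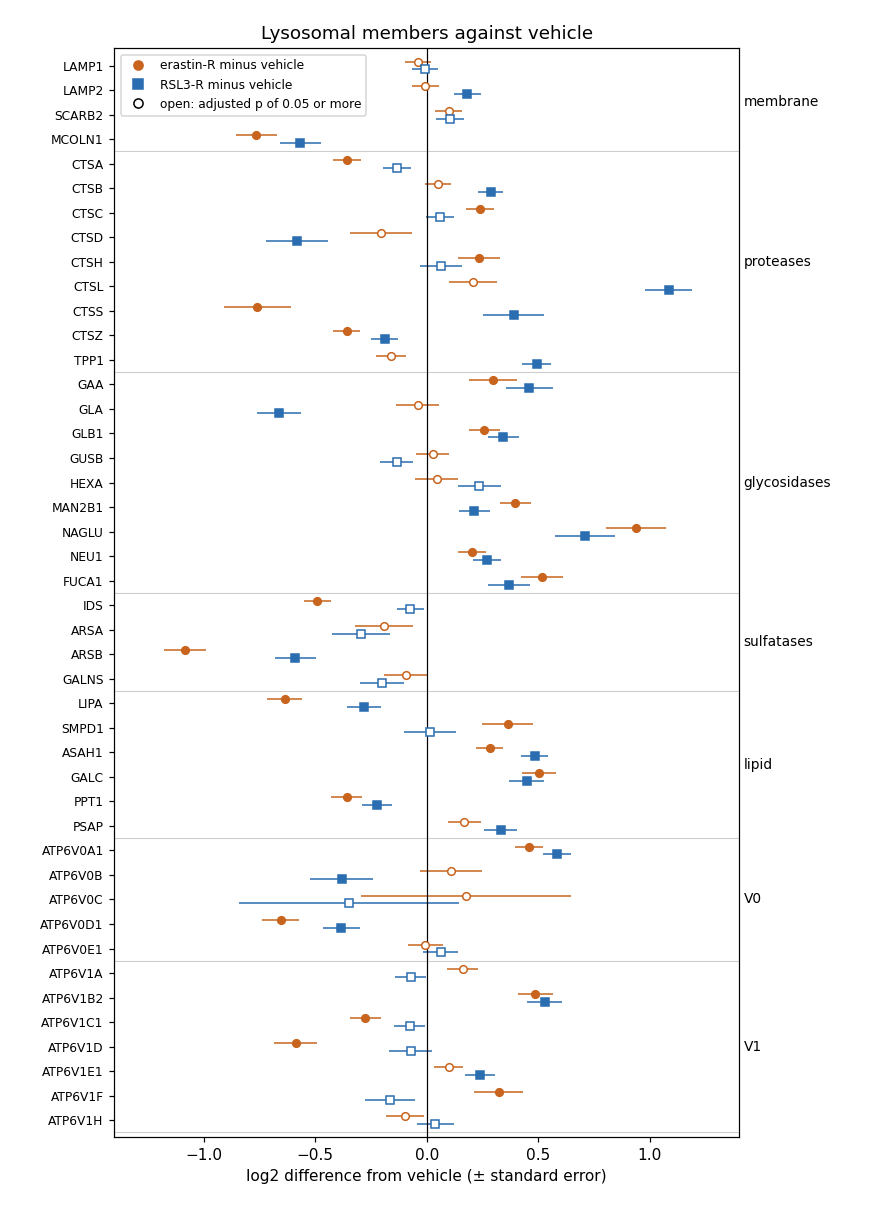
Log2 difference from vehicle of each of the 44 genes, with SE, grouped by role, for erastin-R (orange circles) and RSL3-R (blue squares). Filled symbols mark an adjusted p under 0.05. All glycosidases but GLA and GUSB lie to the right in both comparisons, those of HEXA with open symbols, CTSL stands farthest right in RSL3-R cells at 1.08, and ARSB farthest left in erastin-R cells at -1.08.

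Of the 32 hydrolases and membrane proteins, 11 rose and 8 fell in erastin-R cells (median 0.04) and 14 rose and 7 fell in RSL3-R cells (median 0.08). That was 34.4% higher and 25% lower in erastin-R cells, beside 27.1% and 26.8% of all genes. In RSL3-R cells it was 43.8% higher and 21.9% lower, beside 23.8% and 24.9%. Among the 4 membrane proteins the 2 major glycoproteins of the lysosomal membrane changed little. LAMP1 stood at 230.3, 231 and 223 CPM in vehicle, 206, 226 and 233 in erastin-R and 222, 231 and 228 in RSL3-R libraries. The 3 groups overlapped, and the differences from vehicle were -0.04 (SE 0.06, adjusted p = 0.579) and -0.01 (SE 0.06, adjusted p = 0.930).

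LAMP2, which also serves chaperone-mediated autophagy, was at 127, 124 and 139 CPM in vehicle, 129, 131 and 128 in erastin-R and 152, 141 and 149.7 in RSL3-R libraries. All RSL3-R libraries lay above the others, with a log2 difference from vehicle of 0.18 (SE 0.06, adjusted p = 0.0235), while erastin-R overlapped vehicle (-0.01, adjusted p = 0.932). SCARB2, the receptor that carries glucocerebrosidase to lysosomes, did not pass the test in either population (0.10 in both, adjusted p = 0.203 and 0.183).

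MCOLN1 (ENSG00000090674, chr19:7522626-7534009) encodes mucolipin 1, the channel that releases calcium and iron from lysosomes. Its level was 31.0, 30.8 and 29.2 CPM in vehicle, 16.4, 18.7 and 18.5 in erastin-R and 21.7, 18.9 and 20.9 in RSL3-R libraries. No resistant library reached the vehicle range. It fell by 0.76 in erastin-R cells (SE 0.09, adjusted p = 9.83e-06) and by 0.57 in RSL3-R cells (SE 0.09, adjusted p = 1.52e-04) on the log2 scale, and the 2 resistant populations did not differ past the threshold (adjusted p = 0.0951).

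The 9 proteases went both ways. Against vehicle, 2 rose and 3 fell in erastin-R cells, and 4 rose and 2 fell in RSL3-R cells. The first counts were 22.2% and 33.3% of the proteases, beside 27.1% and 26.8% of all genes. The second were 44.4% and 22.2%, beside 23.8% and 24.9%. CTSL (ENSG00000135047, chr9:87725519-87731393), a cysteine endopeptidase, was at 59.7, 68.1 and 59.4 CPM in vehicle and 87.0, 61.2 and 67.7 in erastin-R libraries, against 132, 135 and 129.7 in RSL3-R libraries. The RSL3-R libraries lay far above both other groups, and erastin-R overlapped vehicle with replicate 1 the highest.

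CTSL was therefore higher in RSL3-R than in vehicle-treated cells by 1.08 (SE 0.11, adjusted p = 1.54e-06), and the erastin-R difference of 0.21 (SE 0.11) missed the threshold at an adjusted p of 0.114. Without erastin-R replicate 1 the latter was 0.05 (adjusted p = 0.558). CTSB, the most abundant cysteine cathepsin after CTSZ here, was also highest in RSL3-R libraries, at 448, 447 and 424 CPM in vehicle, 426, 459.9 and 478 in erastin-R and 531, 547 and 531 in RSL3-R libraries. Its difference was 0.29 in RSL3-R cells (SE 0.06, adjusted p = 9.26e-04) and 0.05 in erastin-R cells (adjusted p = 0.490).

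TPP1, which removes tripeptides from the ends of proteins, was at 129, 129.7 and 141 CPM in vehicle, 125, 119 and 114 in erastin-R and 188, 178 and 197 in RSL3-R libraries. The 3 groups did not overlap. It was higher in RSL3-R cells by 0.49 (SE 0.06, adjusted p = 2.65e-05), and the erastin-R difference of -0.16 had an adjusted p of 0.0506, which became -0.20 and 0.00314 without erastin-R replicate 1.

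CTSS (ENSG00000163131, chr1:150730196-150765957), a cathepsin best known from antigen-presenting cells, was the 1 member that passed the test in opposite directions. It stood at 6.62, 6.86 and 6.23 CPM in vehicle, 4.11, 3.56 and 3.95 in erastin-R and 9.74, 8.33 and 7.77 in RSL3-R libraries. The ranges of the groups were separate. It fell by 0.76 in erastin-R cells (SE 0.15, adjusted p = 6.61e-04) and was higher by 0.39 in RSL3-R cells (SE 0.14, adjusted p = 0.0303). The erastin-R call held in all 15 alternative settings, and the RSL3-R call was lost in 7 of them.

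Among all genes 3.94% passed in opposite directions. The summed level of 4 macrophage markers (PTPRC, CSF1R, CD14 and CD163) was 11.8 to 15.1 CPM in vehicle, 3.69 to 4.82 in erastin-R and 6.77 to 7.13 in RSL3-R libraries. CD163 had at most 6 counts and PTPRC at most 24. The markers did not move together. Mean CPM in vehicle, erastin-R and RSL3-R libraries was 9.14, 2.02 and 2.21 for CSF1R and 3.78, 1.61 and 3.22 for CD14. In erastin-R cells CSF1R fell by 2.17 and CD14 by 1.23, and PTPRC differed by -0.29 (adjusted p = 0.685). In RSL3-R cells CSF1R fell by 2.04 (adjusted p = 1.05e-06) and PTPRC was higher by 1.67 (adjusted p = 0.00818). CD14 differed there by -0.23 (adjusted p = 0.367). The part of these markers in the CTSS values was not tested.

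CTSD, the main aspartic protease, was at 337, 296 and 282 CPM in vehicle, 191, 296 and 306 in erastin-R and 192, 225 and 194 in RSL3-R libraries. RSL3-R lay below vehicle, with a decrease of 0.58 (SE 0.14, adjusted p = 0.00317). In erastin-R cells the difference of -0.21 (SE 0.14, adjusted p = 0.222) came with replicate 1 far below replicates 2 and 3, and without it was -0.02 (adjusted p = 0.801). Of the CTSD exon length 41.7% overlaps a same-strand gene, AC068580.4, which had 10 to 23 counts beside 2976 to 5654 for CTSD.

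The other proteases changed less. CTSZ, a carboxypeptidase, fell by 0.36 in erastin-R cells (adjusted p = 1.95e-04) and by 0.19 in RSL3-R cells (adjusted p = 0.0190). CTSA, which also protects the enzymes GLB1 and NEU1, fell by 0.36 in erastin-R cells (adjusted p = 3.45e-04), with -0.13 in RSL3-R cells (adjusted p = 0.103). CTSC, which activates serine proteases, was higher by 0.24 in erastin-R cells (adjusted p = 0.00528). The aminopeptidase CTSH was higher there by 0.23, at an adjusted p of 0.0488 that was lost in 13 of 15 settings. In RSL3-R cells CTSC and CTSH both differed by 0.06 (adjusted p = 0.477 and 0.611).

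Glycosidases mostly rose. Of 9, 6 rose in erastin-R cells and none fell, and the same 6 (GAA, GLB1, MAN2B1, NAGLU, NEU1 and FUCA1) rose in RSL3-R cells, where GLA fell. Of all genes 27.1% and 23.8% rose in these comparisons, and 14.1% rose in both. Since both comparisons share the vehicle libraries, the second is not independent of the first. NAGLU (ENSG00000108784, chr17:42536172-42544449), which removes terminal N-acetylglucosamine from heparan sulfate, stood at 29.1, 25.4 and 24.4 CPM in vehicle, 37.8, 59.0 and 54.5 in erastin-R and 40.9, 44.6 and 43.5 in RSL3-R libraries.

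All resistant libraries of NAGLU lay above vehicle. The difference was 0.94 in erastin-R cells (SE 0.13, adjusted p = 4.97e-05), or 1.92-fold, and 0.71 in RSL3-R cells (SE 0.13, adjusted p = 6.20e-04). The erastin-R difference was 1.11 without replicate 1 (adjusted p = 1.10e-12). FUCA1, which removes fucose from glycoproteins and glycolipids, was at 28.4, 30.0 and 29.5 CPM in vehicle, 45.4, 36.9 and 43.2 in erastin-R and 35.3, 36.1 and 41.8 in RSL3-R libraries. Neither resistant group overlapped vehicle, and the differences were 0.51 (SE 0.09, adjusted p = 3.83e-04) and 0.37 (SE 0.09, adjusted p = 0.00531).

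MAN2B1, the lysosomal alpha-mannosidase, was at 73.8, 66.0 and 67.1 CPM in vehicle, 89.9, 87.8 and 94.7 in erastin-R and 75.5, 84.6 and 79.6 in RSL3-R libraries. The 3 groups did not overlap and erastin-R was the highest. The differences were 0.40 (SE 0.07, adjusted p = 2.72e-04) and 0.21 (SE 0.07, adjusted p = 0.0214). GAA, which degrades glycogen, was at 132, 127 and 122 CPM in vehicle, 122, 174 and 172 in erastin-R and 166, 174 and 183 in RSL3-R libraries. Only erastin-R replicate 1 reached down into the vehicle range.

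The GAA differences were 0.30 in erastin-R cells (SE 0.11, adjusted p = 0.0288), or 0.44 without that replicate (adjusted p = 1.59e-08), and 0.46 in RSL3-R cells (SE 0.11, adjusted p = 0.00262). The erastin-R call was lost in 7 of 15 settings. Smaller increases were seen for the beta-galactosidase GLB1 (0.26 and 0.34, adjusted p = 0.00678 and 0.00112) and the sialidase NEU1 (0.20 and 0.27, adjusted p = 0.0143 and 0.00279).

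GLA, the alpha-galactosidase deficient in Fabry disease, went the other way in RSL3-R cells alone among the glycosidases. It stood at 24.0, 22.4 and 21.2 CPM in vehicle, 23.8, 20.4 and 21.5 in erastin-R and 15.2, 13.7 and 13.8 in RSL3-R libraries. The RSL3-R libraries lay below all others. It fell by 0.66 there (SE 0.10, adjusted p = 8.07e-05) and differed by -0.04 in erastin-R cells (SE 0.10, adjusted p = 0.742). GUSB, the beta-glucuronidase, differed by 0.03 and -0.13 (adjusted p = 0.788 and 0.156), and HEXA, the alpha subunit of hexosaminidase, by 0.05 and 0.24 (adjusted p = 0.713 and 0.0552).

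None of the 4 sulfatases rose against vehicle, while 2 fell in erastin-R cells and 1 fell in RSL3-R cells. The background was 27.1% higher and 26.8% lower for erastin-R, and 23.8% and 24.9% for RSL3-R. A set of 4 genes is too small to tell these counts from that background. ARSB (ENSG00000113273, chr5:78777209-78986087) removes sulfate from dermatan and chondroitin sulfate. It stood at 32.1, 36.4 and 33.1 CPM in vehicle, 15.1, 17.1 and 15.7 in erastin-R and 21.7, 21.1 and 24.6 in RSL3-R libraries. The 3 groups did not overlap, with erastin-R lowest. It fell by 1.08 (SE 0.10, adjusted p = 5.40e-07) and by 0.59 (SE 0.09, adjusted p = 1.32e-04).

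IDS, the iduronate sulfatase that acts on heparan and dermatan sulfate, was at 179, 188 and 188 CPM in vehicle, 123, 137 and 134 in erastin-R and 178, 168 and 180.3 in RSL3-R libraries. Only the erastin-R libraries lay apart. It fell by 0.49 in erastin-R cells (SE 0.06, adjusted p = 1.38e-05) and differed by -0.07 in RSL3-R cells (adjusted p = 0.333). ARSA, the sulfatase for sulfatide, differed by -0.19 and -0.29 (adjusted p = 0.232 and 0.0782), and GALNS, for keratan sulfate, by -0.09 and -0.20 (adjusted p = 0.451 and 0.112).

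The 6 lipid hydrolases and activators split. LIPA, which frees cholesterol and fatty acids from esters taken up in lipoproteins, was at 73.2, 64.8 and 76.7 CPM in vehicle, 48.9, 43.9 and 45.3 in erastin-R and 61.9, 58.0 and 56.7 in RSL3-R libraries. Both resistant groups lay below vehicle. It fell by 0.64 (SE 0.08, adjusted p = 1.25e-05) and by 0.28 (SE 0.08, adjusted p = 0.00783). PPT1, which removes palmitate from proteins, fell by 0.36 and 0.22 (adjusted p = 5.23e-04 and 0.0146), and 23.4% of its exon length overlaps CAP1 on the opposite strand, with the strand setting of the counting not stated.

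ASAH1 and GALC rose in both populations. ASAH1, the acid ceramidase, stood at 62.9, 65.0 and 66.5 CPM in vehicle, 77.6, 78.4 and 80.2 in erastin-R and 90.6, 87.4 and 93.7 in RSL3-R libraries. GALC, which releases ceramide from galactosylceramide, stood at 59.2, 52.5 and 62.1, then 79.0, 82.0 and 85.2, then 82.5, 72.5 and 82.2 CPM in the same groups. Neither gene's resistant libraries overlapped vehicle. ASAH1 was higher by 0.28 (SE 0.06, adjusted p = 0.00134) and 0.48 (SE 0.06, adjusted p = 1.63e-05), and GALC by 0.50 (SE 0.08, adjusted p = 1.01e-04) and 0.45 (SE 0.08, adjusted p = 3.09e-04).

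SMPD1, the acid sphingomyelinase that makes ceramide, was at 35.9, 31.1 and 33.6 CPM in vehicle, 35.0, 44.2 and 50.3 in erastin-R and 33.8, 31.6 and 36.2 in RSL3-R libraries. Erastin-R replicates 2 and 3 lay above all other libraries and replicate 1 within the vehicle range. It was higher in erastin-R cells by 0.36 (SE 0.11, adjusted p = 0.0159), or 0.49 without replicate 1 (adjusted p = 7.63e-06), with 0.01 in RSL3-R cells (adjusted p = 0.928). PSAP was at 927, 921 and 901 CPM in vehicle, 886, 1103 and 1098 in erastin-R and 1159.8, 1152 and 1147 in RSL3-R libraries. Its RSL3-R difference was 0.33 (SE 0.07, adjusted p = 0.00197), and its erastin-R difference of 0.17 (adjusted p = 0.0681) became 0.26 without replicate 1 (adjusted p = 4.77e-07).

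**Figure D3:**
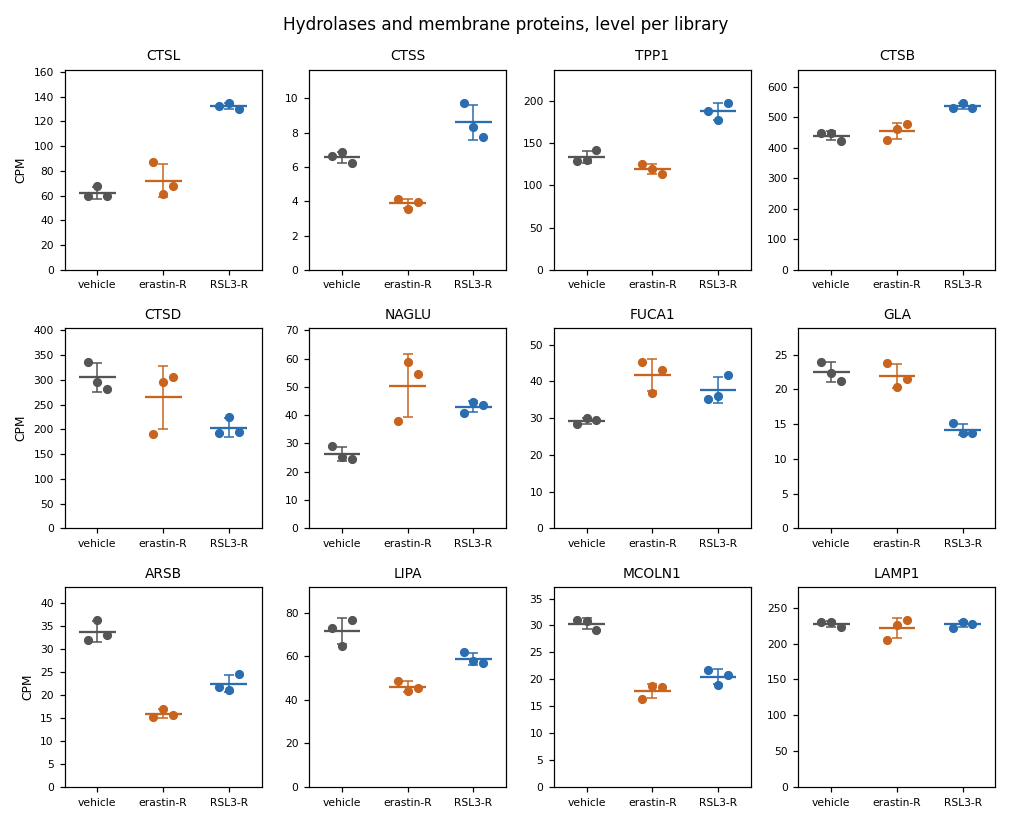
Level in CPM of 12 hydrolases and membrane proteins in each library, with the mean as a line and the SD as error bars (n = 3 per group, each axis from 0). CTSL and TPP1 stand highest in RSL3-R libraries, ARSB and LIPA lowest in erastin-R libraries, and 1 erastin-R library is apart from its group in CTSD and NAGLU.

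Among the 12 V-ATPase subunits, 3 rose and 3 fell in erastin-R cells (median 0.10), beside 27.1% and 26.8% of all genes. In RSL3-R cells 3 rose and 2 fell (median -0.07), beside 23.8% and 24.9%. These counts are near or below the background. In the V0 sector, ATP6V0A1, an isoform of the large subunit that helps to place the pump in a membrane, was at 75.0, 70.0 and 72.4 CPM in vehicle, 94.9, 99.9 and 104 in erastin-R and 107, 108 and 112 in RSL3-R libraries. There was no overlap between the 3 groups. It was higher by 0.46 (SE 0.06, adjusted p = 2.75e-05) and 0.58 (SE 0.06, adjusted p = 3.33e-06).

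ATP6V0D1, which links the rotor of V1 to the ring of V0, went the opposite way. It stood at 52.9, 50.8 and 46.9 CPM in vehicle, 30.0, 33.8 and 31.9 in erastin-R and 41.7, 38.3 and 35.5 in RSL3-R libraries. The 3 groups again did not overlap, with erastin-R lowest. It fell by 0.65 (SE 0.08, adjusted p = 1.81e-05) and by 0.38 (SE 0.08, adjusted p = 0.00165).

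ATP6V0B, a second proteolipid of the ring, was at 79.3, 72.6 and 68.8 CPM in vehicle, 56.3, 89.3 and 92.4 in erastin-R and 58.1, 57.6 and 53.8 in RSL3-R libraries. The RSL3-R libraries lay below vehicle, and erastin-R lay on both sides of it. It fell by 0.38 in RSL3-R cells (SE 0.14, adjusted p = 0.0361), a call lost in 6 of 15 settings. In erastin-R cells the difference was 0.11 (SE 0.14, adjusted p = 0.531), or 0.30 without replicate 1 (adjusted p = 1.61e-04). The small subunit ATP6V0E1 differed by -0.01 and 0.06 (adjusted p = 0.942 and 0.538), and ATP6V0C by 0.18 and -0.35 with an SE of 0.47 and 0.49 (adjusted p = 0.774 and 0.590).

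In the V1 sector, ATP6V1B2, the B subunit of the ATP-hydrolysing ring in most cells, was at 72.1, 73.6 and 69.4 CPM in vehicle, 88.3, 104 and 109 in erastin-R and 104, 97.4 and 109 in RSL3-R libraries. Both resistant groups lay above vehicle and overlapped each other. It was higher by 0.49 (SE 0.08, adjusted p = 1.53e-04) and 0.53 (SE 0.08, adjusted p = 8.96e-05). Its catalytic partner ATP6V1A differed by 0.16 and -0.07 (adjusted p = 0.0687 and 0.424), and the first was 0.18 without erastin-R replicate 1 (adjusted p = 0.0235).

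ATP6V1D, part of the central shaft, was at 91.2, 90.0 and 100.4 CPM in vehicle, 74.9, 55.7 and 56.7 in erastin-R and 90.6, 87.3 and 90.0 in RSL3-R libraries. Only erastin-R lay apart. It fell by 0.59 in erastin-R cells (SE 0.10, adjusted p = 1.81e-04), or by 0.74 without replicate 1 (adjusted p = 3.01e-11). In RSL3-R cells ATP6V1D differed by -0.07 (adjusted p = 0.567). Of its exon length 6.33% overlaps EIF2S1 on the opposite strand.

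ATP6V1F, which also belongs to the shaft, was at 42.4, 41.1 and 32.1 CPM in vehicle, 50.4, 44.6 and 49.5 in erastin-R and 30.9, 32.9 and 39.2 in RSL3-R libraries. Erastin-R lay above both other groups, which overlapped. The differences were 0.32 (SE 0.11, adjusted p = 0.0246) and -0.17 (SE 0.11, adjusted p = 0.245). Among the stator subunits, ATP6V1C1 fell by 0.28 in erastin-R cells (adjusted p = 0.00423), with -0.08 in RSL3-R cells (adjusted p = 0.392). ATP6V1E1 was higher by 0.24 in RSL3-R cells (adjusted p = 0.00832), with 0.10 in erastin-R cells (adjusted p = 0.231), and ATP6V1H differed by -0.10 and 0.04 (adjusted p = 0.352 and 0.731).

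**Figure D4:**
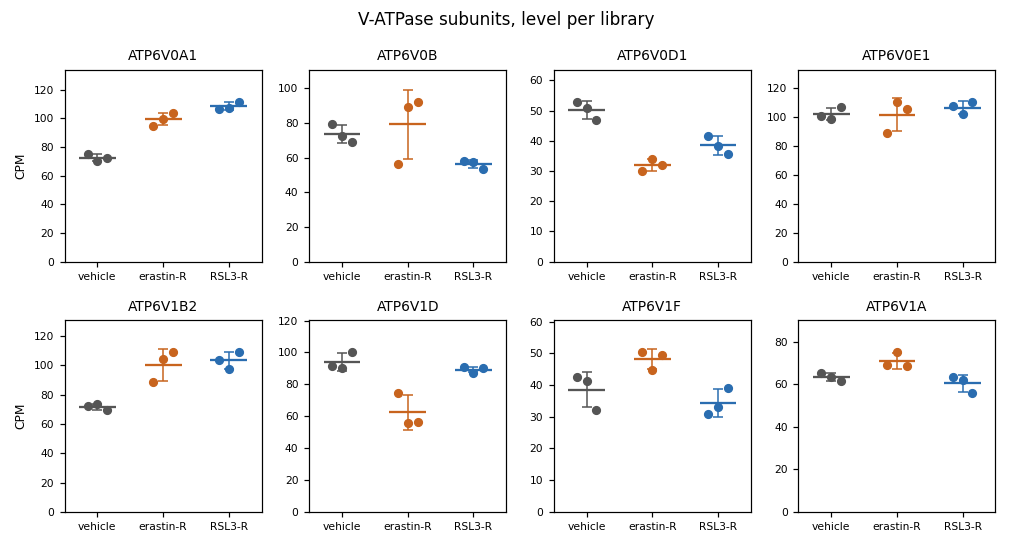
Level in CPM of 8 V-ATPase subunits in each library, with the mean as a line and the SD as error bars (n = 3 per group, each axis from 0). ATP6V0A1 and ATP6V1B2 stand above vehicle in both resistant groups and ATP6V0D1 below it, while ATP6V1D is low in erastin-R libraries alone.

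Set directly against each other, the resistant populations differed in 22 of 44 members, beside 49.2% of all genes, with 14 higher and 8 lower in RSL3-R cells. These were 31.8% and 18.2% of the members, beside 22.3% and 26.9% of all genes. Libraries of the 2 populations did not overlap for 24 members, or 54.5% beside 55.2% of all genes, and the median difference was 0.11 against -0.02 for all genes. Of the 9 proteases 6 were higher (66.7%, beside 22.3% of all genes) and 2 lower (22.2%, beside 26.9%). The higher ones were CTSS at 1.15 (SE 0.15, adjusted p = 2.34e-05), CTSL at 0.88 (SE 0.10, adjusted p = 1.37e-05) and TPP1 at 0.65 (SE 0.06, adjusted p = 2.79e-06). CTSB (0.24), CTSA (0.22) and CTSZ (0.17) were higher by less, and the last 2 calls were lost in 1 and 4 of 15 settings. The lower ones were CTSD and CTSC, the latter at -0.18 (adjusted p = 0.0271), a call lost in 7 of 15 settings. With all libraries CTSS was the 1 member past a log2 difference of 1 as well. Of all genes 6.86% passed it as higher and 3.48% as lower, or 10.3% either way. CTSL also passed it, at 1.03 (adjusted p = 7.16e-14), when erastin-R replicate 1 was left out.

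ARSB (0.49, adjusted p = 8.20e-04), IDS (0.42, adjusted p = 7.92e-05) and LIPA (0.35, adjusted p = 0.00204) were also higher in RSL3-R than in erastin-R cells. Lower in RSL3-R cells were GLA (-0.62, adjusted p = 1.53e-04), CTSD (-0.38, adjusted p = 0.0360), SMPD1 (-0.35, adjusted p = 0.0218) and MAN2B1 (-0.18, adjusted p = 0.0392). The CTSD and SMPD1 calls were each lost in 6 of 15 settings and that of MAN2B1 in 10. The CTSD difference was -0.57 without erastin-R replicate 1 (adjusted p = 8.02e-09), and over all settings ran up to -0.26, losing its call without erastin-R replicate 2 or 3. The SMPD1 difference was -0.48 without replicate 1 (adjusted p = 1.21e-05) and likewise lost its call without replicate 2 or 3. NAGLU differed by -0.23 (adjusted p = 0.164), or by -0.40 without erastin-R replicate 1 (adjusted p = 5.61e-05). PPT1 (0.21, adjusted p = 0.00165), GUSB (-0.17, adjusted p = 0.0374) and ATP6V1E1 (0.15, adjusted p = 0.0358) also passed the test without that replicate, but not with all libraries. Of the 9 glycosidases, edgeR called none higher and 2 lower in RSL3-R than in erastin-R cells, beside 22.3% and 26.9% of all genes. After quantile normalization GLB1, NEU1 and HEXA passed as higher, so this absence depends on the processing. Among V-ATPase subunits ATP6V1D (0.52, adjusted p = 6.33e-04) and ATP6V0D1 (0.27, adjusted p = 0.0165) were higher, and ATP6V0B (-0.49, adjusted p = 0.0100) and ATP6V1F (-0.49, adjusted p = 0.00253) were lower. Without erastin-R replicate 1 the ATP6V1D difference was 0.67 (adjusted p = 3.48e-10) and the ATP6V0B difference -0.69 (adjusted p = 3.58e-10). The ATP6V0B call was lost in 3 of 15 settings.

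Other genes of the pathway were taken from lists of further lysosomal proteins, V-ATPase subunits, regulators, sorting receptors and inhibitors. Their counts stand beside the same background, with 27.1% of all genes higher and 26.8% lower in erastin-R cells, and 23.8% and 24.9% in RSL3-R cells. Of the 3 tested genes of the TFEB family, all rose in erastin-R cells and TFE3 and MITF rose in RSL3-R cells. TFE3 stood at 143, 145 and 131 CPM in vehicle, 266, 266 and 276 in erastin-R and 220.1, 222 and 225 in RSL3-R libraries. Each group lay apart from the others. Its differences were 0.95 (SE 0.06, adjusted p = 1.99e-08) and 0.67 (SE 0.06, adjusted p = 5.00e-07).

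MITF was higher by 0.71 (adjusted p = 3.07e-04) and 0.47 (adjusted p = 0.00782). TFEB was higher by 0.68 in erastin-R cells (SE 0.17, adjusted p = 0.00380) and differed by 0.05 in RSL3-R cells (SE 0.17, adjusted p = 0.840). These are RNA levels, whereas the family is known to be controlled largely through phosphorylation and entry into the nucleus, which were not measured here. Of 13 genes of the Ragulator and Rag complexes and their partners, which tether mTORC1 to the lysosome, 3 rose and 2 fell in erastin-R cells and 2 rose and 3 fell in RSL3-R cells.

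Of 26 further lysosomal genes tested, 10 rose and 6 fell in erastin-R cells and 12 rose and 6 fell in RSL3-R cells. NPC1, which exports cholesterol from lysosomes, was at 264, 262 and 262 CPM in vehicle, 751, 848 and 883 in erastin-R and 501, 489.7 and 489 in RSL3-R libraries. The groups lay far apart, with differences of 1.65 (SE 0.06, adjusted p = 4.20e-10) and 0.91 (SE 0.06, adjusted p = 5.12e-08), which exceed in erastin-R cells those of every one of the 44 members. SLC17A5, which exports sialic acid, was higher by 1.09 (adjusted p = 1.45e-08) and 0.49 (adjusted p = 2.78e-05). ACP2, the lysosomal acid phosphatase, fell by 1.23 (adjusted p = 3.94e-07) and 0.40 (adjusted p = 0.00429).

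In RSL3-R cells LAMP3, an inducible relative of LAMP1, was higher by 1.25 (adjusted p = 6.52e-06) and the cathepsin CTSO by 1.17 (adjusted p = 5.23e-06). In erastin-R cells LAMP3 was higher by 0.42 (adjusted p = 0.0264) and CTSO differed by -0.14 (adjusted p = 0.411). Of 11 further V-ATPase genes tested, 3 rose and 3 fell in erastin-R cells and 2 rose and 1 fell in RSL3-R cells. ATP6V0E2, an alternative to ATP6V0E1, fell by 0.53 (adjusted p = 0.00268) and by 1.59 (adjusted p = 3.45e-07). ATP6V1C2 was higher by 1.05 in RSL3-R cells (adjusted p = 0.0141) on 9 to 31 counts, and 29.7% of its exon length overlaps the much more abundant PDIA6 on the opposite strand.

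**Figure D5:**
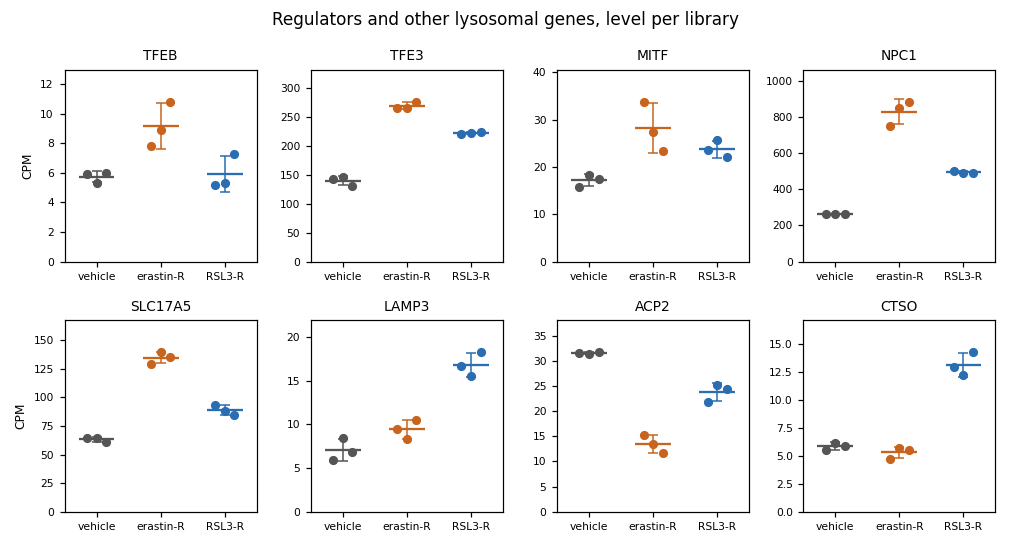
Level in CPM of 3 regulators and 5 further lysosomal genes in each library, with the mean as a line and the SD as error bars (n = 3 per group, each axis from 0). TFE3, NPC1 and SLC17A5 are highest in erastin-R libraries with RSL3-R between them and vehicle, ACP2 shows the reverse order, and LAMP3 and CTSO are highest in RSL3-R libraries.

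Cystatins, the inhibitors of cysteine cathepsins, included the largest differences among all genes of these lists. Of 7 tested, 1 rose and 5 fell in erastin-R cells and 3 rose and 1 fell in RSL3-R cells. The secreted CST4 stood at 32.6, 33.8 and 27.3 CPM in vehicle, 3.45, 2.48 and 2.37 in erastin-R and 74.8, 79.1 and 75.8 in RSL3-R libraries. No 2 groups shared a range. It fell by 3.49 (SE 0.13, adjusted p = 4.20e-10) and was higher by 1.29 (SE 0.10, adjusted p = 1.28e-07).

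CST2 fell by 3.13 in erastin-R cells (adjusted p = 4.26e-09) and was higher by 1.06 in RSL3-R cells (adjusted p = 4.58e-06). CST1 was at 12.4, 15.1 and 17.3 CPM in vehicle and 36.6, 35.3 and 31.0 in RSL3-R libraries, but had only 3, 2 and 6 counts in the erastin-R libraries. These 3 genes are close relatives, with 30.2% of the 50-base words of CST4, 23.6% of those of CST1 and 8.30% of those of CST2 found in other genes' transcripts, so reads may have been lost or shared among them. CST7, which enters lysosomes and inhibits CTSC and other cathepsins, was higher by 1.68 in erastin-R cells (SE 0.35, adjusted p = 0.00112) at 0.537 to 2.99 CPM in the vehicle and erastin-R libraries. Of 6 genes for mannose-6-phosphate tagging and sorting of hydrolases, none rose and 3 fell in erastin-R cells, and 1 rose and 2 fell in RSL3-R cells.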

How the data were processed

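The authors deposited raw counts of reads on genes, 1 table a library, and FPKM values computed from them. The submitters' processing notes name HISAT2 2.0.5 and featureCounts 1.5.0-p3, and the study's methods describe unique exonic reads. Whether strand was used is not given in the sources used here. Gene coordinates and lengths of all 58735 genes equalled GENCODE release 29 (GRCh38). FPKM served only to set levels of different genes side by side.

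Counts were filtered with filterByExpr, normalized by TMM and tested with edgeR 4.0.16 (quasi-likelihood, 1 model of all 9 libraries, no covariate) in R 4.3.3, with p values adjusted by Benjamini and Hochberg over 16188 genes. Groups were taken from the treatment labels. Total counts ran from 15405102 to 17273464, and the common dispersion gave a coefficient of variation of 8.56%. The floor and any limits from counts cover counting error only. Counts for erastin-R against vehicle were also simulated over 16188 genes with 200 changed. There edgeR recovered 50 of 106 genes changed by a log2 of 0.5 and 69 of 94 changed by 1, with 5 false calls. In the data 54.0% of all genes were called, so the adjusted p cutoff was less strict than in the simulation. The simulated recovery therefore does not measure how often a member's change would be found.

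The members and lists were chosen with earlier results of these data known. All members are named. Library values are given for the 4 members with the largest called change each way among hydrolases and membrane proteins and the 2 each way among V-ATPase subunits in each comparison, for LAMP1, LAMP2, CTSB, CTSD and CTSL, and for members called in opposite directions. IDS, GAA and PSAP fall outside this rule and were added after their values were seen. SMPD1 meets it only in RSL3-R against erastin-R cells. Genes outside the 44 are named where called with a log2 change of at least 1, besides TFEB, TFE3 and MITF. Motifs were searched in RefSeq windows (GRCh38.p14). Alternatives were median-ratio size factors, DESeq2 1.42.0, quantile normalization with limma 3.58.1, no filter, only the 2 groups compared, the replicate number as a block, an added log2 minimum of 1, and each library left out. Python 3.11.15 with matplotlib 3.10.9 drew the figures.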

Additional observations from a re-analysis of the deposited data

Results flagged for a closer look

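CTSS was marked because its change in the 2 resistant populations differed when the populations were tested against each other, with RSL3-R above erastin-R by 1.15 on the log2 scale (SE 0.15, edgeR adjusted p = 2.34e-05). Each of the 3 RSL3-R libraries lay above and each of the 3 erastin-R libraries below the vehicle range. The difference stayed between 1.01 and 1.25 over 15 alternative settings, with an adjusted p of at most 2.00e-04.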

How the results depend on the processing

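With a log2 change of at least 1 added, the hydrolases and membrane proteins kept 0 higher and 1 lower in erastin-R, 1 higher and 0 lower in RSL3-R, and 1 higher and 0 lower in RSL3-R against erastin-R cells, and the V-ATPase subunits 0 in every comparison. All genes then gave 1084 higher and 1078 lower, 975 and 660, and 1111 and 563. In RSL3-R against erastin-R cells the count of lower hydrolases and membrane proteins was 5, but 1 after quantile normalization or with only the 2 groups, and 3 without the filter or with the replicate block. Quantile normalization also gave 1 lower V-ATPase subunit in RSL3-R against vehicle, and 6 higher and 1 lower in RSL3-R against erastin-R cells. The cause was not tested. Same-numbered libraries did not deviate together (mean correlation -0.0049 over 9 pairs, 0.0026 over 18 others), so the block is not a pairing.

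Leaving out each library in turn gave 7 to 12 higher and 8 to 9 lower hydrolases and membrane proteins in erastin-R, 11 to 15 and 4 to 10 in RSL3-R, and 9 to 12 and 1 to 7 in RSL3-R against erastin-R cells. V-ATPase subunits gave 2 to 5 higher and 3 to 3 lower, 3 to 3 and 1 to 3, and 2 to 4 and 1 to 4. All genes gave 3856 to 4917 and 3852 to 5040, 3191 to 4549 and 3126 to 4852, and 3076 to 4503 and 3275 to 4989. Of the members' calls, 20 of 25 in erastin-R, 19 of 26 in RSL3-R and 11 of 22 between them held in all 15 settings that refit the data. Lost in at least 1 were ATP6V1F, CTSH, GAA, NEU1 and SMPD1 in erastin-R, ATP6V0B, CTSS, CTSZ, LAMP2, LIPA, MAN2B1 and PPT1 in RSL3-R, and ASAH1, ATP6V0B, ATP6V1A, ATP6V1C1, CTSA, CTSC, CTSD, CTSZ, LAMP2, MAN2B1 and SMPD1 between them. Without erastin-R replicate 1 none was lost, and ATP6V1A, ATP6V0B, TPP1 and PSAP passed in erastin-R against vehicle, NAGLU, ATP6V1E1, PPT1 and GUSB in RSL3-R against erastin-R, and CTSA, ARSA, GALNS and HEXA in RSL3-R against vehicle, where the shared estimate of spread changed.

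No called member changed sign. Uncalled values near 0 did, as GUSB in erastin-R (-0.027) and GALC in RSL3-R against erastin-R (0.043) after quantile normalization, ATP6V1D in RSL3-R (0.0022) after the same, and LAMP1 in RSL3-R with median-ratio factors (0.0064) or DESeq2 (0.0064). With a library left out the ranges that crossed 0 were, in erastin-R, -0.014 to 0.30 for ATP6V0B, -0.12 to 0.81 for ATP6V0C, -0.074 to 0.080 for ATP6V0E1, -0.11 to 0.0065 for GLA, -0.017 to 0.063 for GUSB, -0.0086 to 0.11 for HEXA, -0.077 to 0.0087 for LAMP1 and -0.042 to 0.038 for LAMP2. In RSL3-R they were -1.18 to 0.29 for ATP6V0C, -0.097 to 0.019 for ATP6V1A, -0.0055 to 0.10 for ATP6V1H, -0.027 to 0.044 for LAMP1 and -0.040 to 0.066 for SMPD1. In RSL3-R against erastin-R they were -0.020 to 0.13 for ATP6V0E1, -0.046 to 0.10 for ATP6V1B2, -0.083 to 0.0060 for GALC, -0.019 to 0.085 for LAMP1 and -0.042 to 0.051 for SCARB2. Depth limits ATP6V0C, at 9 to 48 counts. The simulated counts set no such limit for the members, as fewer genes were changed in them than were called in the data.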
